A study of Mus musculus with 4 samples.

Results

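The genes described here are 10 members of the YAP-TEAD mechanosensing system, namely Yap1, Wwtr1, Tead1, Tead4, Lats2, Amotl1, Ccn1, Ccn2, Ankrd1 and Piezo1, chosen by symbol from the 24873 genes of the deposited table, in which all 10 were listed. They were measured by RNA-Seq in brain cells of mice with the genotype Cdh5cre;Mgpflox/flox, in 2 control libraries (No Tamoxifen) and 2 tamoxifen libraries (Tamoxifen treated). Both groups carried the floxed Mgp alleles and a tamoxifen-activated Cre under the VE-cadherin (Cdh5) promoter, which is active in endothelial cells. Treated mice were given tamoxifen at 75 mg/kg once a day for 5 days from 10 weeks of age, and cells were isolated on day 9, pooled from 3 mice per library. The control group received no tamoxifen, so an effect of the drug and an effect of the deletion cannot be told apart. The study sorted cells as CD31+CD45-, whereas the sample labels call them brain tdTomato+ cells. The columns of the table bear the letters C and A. Here the C columns were taken for the controls and the A columns for the tamoxifen group, in which arteriovenous malformations (AVMs) form; the labels themselves carry no such letter for the treated mice.

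YAP, encoded by Yap1, and TAZ, encoded by Wwtr1, are transcriptional coactivators that have no DNA-binding domain of their own and bind promoters and enhancers through the TEAD proteins. When the Hippo kinases MST and LATS are active, YAP and TAZ are phosphorylated and held in the cytoplasm, and motin proteins such as the product of Amotl1 can also retain them there. Stretch, stiff matrix and disturbed flow favour their entry into the nucleus, where they induce genes such as Ccn1, Ccn2 and Ankrd1, and in endothelial cells they take part in sprouting angiogenesis and the response to flow. Their activity is set largely by phosphorylation and location, which RNA-Seq does not measure.

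Values are normalized counts, that is, read counts scaled by the authors with a single factor for each library, from 35387438 to 49799321 reads on genes per library. The test was limma on log2(normalized count + 1) with Benjamini-Hochberg adjustment over the 20485 genes whose mean reached 10. A gene was called when its adjusted p was under 0.05 and its log2 fold change, tamoxifen minus control, was over 1 in size. For one gene on its own, 0.333 is the smallest two-sided p an exact permutation of 2 against 2 libraries allows, and the limma values draw on the spread of the other genes. Of the 10 genes, 1 was called higher, beside 28.6% of all genes tested, and 6 were called lower, beside 16% of all genes tested. An adjusted p under 0.05 alone was reached by 9 of the 10, beside 58.9% of all genes. In all 10 genes the control and tamoxifen libraries did not overlap, which also held for 82.3% of all genes. The median log2 fold change was -1.13 for the 10 genes and 0.05 for all genes tested.

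The tamoxifen libraries differed from the controls in markers of many cell types, and these stand beside every result below. All 10 endothelial markers were called lower, their summed level being 964318 to 988125 normalized counts in the controls and 85910.5 to 168017 in the tamoxifen libraries, with a median log2 fold change of -2.91. Pecam1 (CD31), the gene of the sort, had 83681 and 88796 normalized counts in the controls and 15987 and 8973 in the tamoxifen libraries. Ptprc (CD45), the gene of the negative gate, had 50.7 and 83.9 in the controls and 1423 and 1119 in the tamoxifen libraries. All 8 fibroblast markers were called higher (2597 to 3582 against 66108 to 77510 summed normalized counts), as were all 8 astrocyte markers (28985 to 34647 against 148340.0 to 309258), 7 of 8 oligodendrocyte lineage markers (2422 to 3061 against 23063 to 55043) and 4 of 6 neuron markers (1614 to 2019 against 13475 to 22341). All 6 markers were called higher for ependymal and choroid plexus cells (1031 to 3591 against 9742 to 47491), neutrophils (220.3 to 273.9 against 76747 to 102943), erythroid cells (18082 to 36469 against 103723 to 161494), pluripotent cells (58.9 to 90.1 against 34058 to 44096) and the cell cycle (1027 to 1198 against 74012 to 76291). Of the microglia and macrophage markers 3 of 6 were called higher (1182 to 2278 against 3689 to 4017), and of the pericyte markers 3 of 8, whose sums overlapped between the groups (34777 to 65092 against 49639 to 93685). Of the smooth muscle markers 1 of 6 was called higher and 1 lower (17642 to 17778 against 5817 to 5912). Without tamoxifen replicate 2, 1 of 6 ependymal and choroid plexus, 3 of 6 erythroid, 5 of 8 astrocyte and 1 of 6 microglia and macrophage markers were called higher, and without tamoxifen replicate 1 these were 4, 3, 7 and 1. The pericyte markers called higher ranged from 0 when either tamoxifen library was left out, over 1 without control replicate 1, to 6 without control replicate 2, and the smooth muscle markers from 0 when control replicate 1 or either tamoxifen library was left out to 3 without control replicate 2. None of these 90 markers was at 0 in any library. In bulk RNA, fewer cells of a type and less RNA per cell cannot be told apart, and the part these markers have in the values of the 10 genes was not tested. Mgp, the targeted gene, had 1094 and 1352 normalized counts in the controls and 945 and 909 in the tamoxifen libraries, and was not called (log2 fold change -0.39 with a standard error of 0.18, limma adjusted p = 0.0986).

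**Figure D1:**
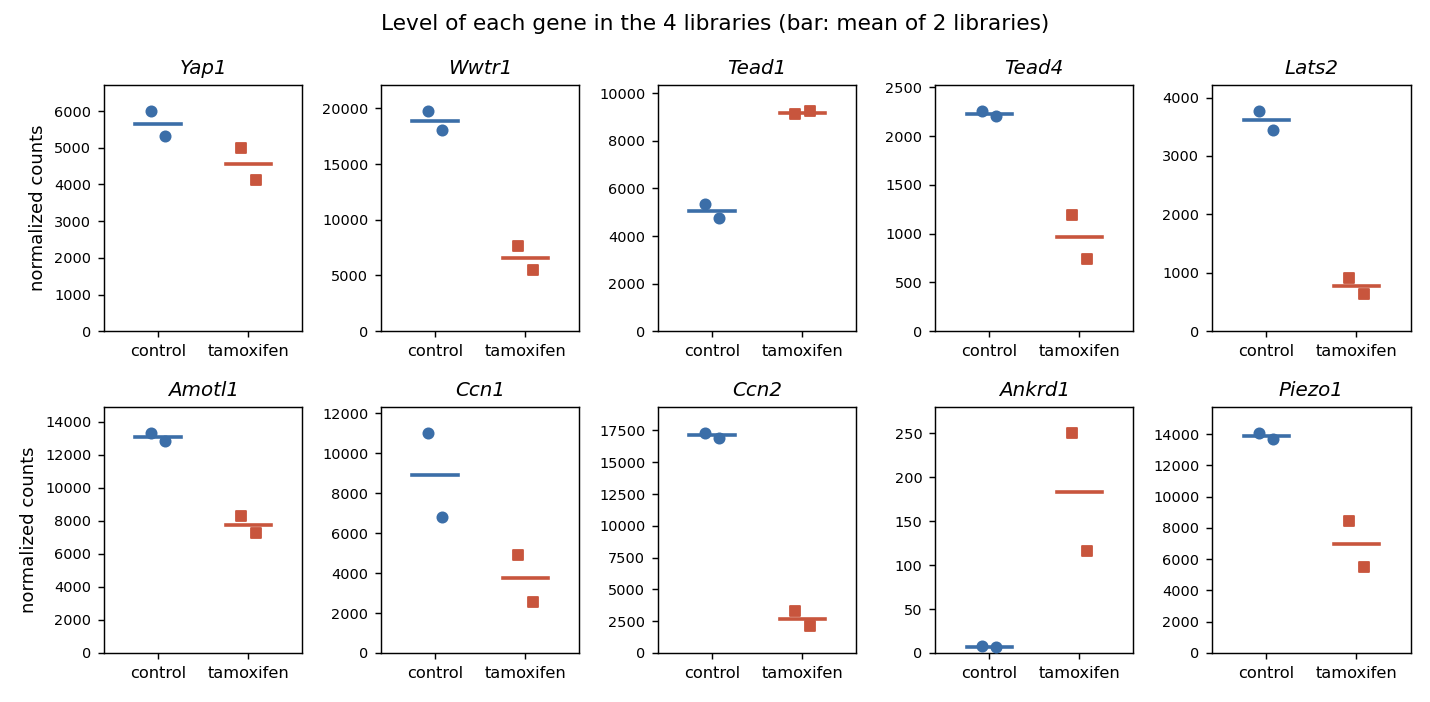
Normalized counts of each of the 10 genes on linear axes from 0, with circles for the 2 control libraries, squares for the 2 tamoxifen libraries and a bar at the mean of each group. Only Tead1 and Ankrd1 lie higher in both tamoxifen libraries, and Ccn2 lies at 16915 to 17296 in the controls and 2137 to 3277 in the tamoxifen libraries.

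The 3 target genes among the 10 moved in different directions. The promoters of Ccn1, which was called lower, and Ankrd1, which was called higher, are shown because TEAD proteins bind the motif GGAATG, read as CATTCC on the other strand. The sequences are the 250 bases before the start of the GENCODE canonical transcript, read 5' to 3' on the gene's strand from GRCm39, with each motif match in capitals.
Ccn1, chr3:145355739-145355988, - strand: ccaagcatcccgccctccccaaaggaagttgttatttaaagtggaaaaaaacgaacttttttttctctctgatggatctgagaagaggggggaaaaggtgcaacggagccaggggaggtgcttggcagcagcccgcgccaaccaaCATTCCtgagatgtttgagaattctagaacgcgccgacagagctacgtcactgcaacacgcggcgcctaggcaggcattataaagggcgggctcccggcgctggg
Ankrd1, chr19:36097507-36097756, - strand: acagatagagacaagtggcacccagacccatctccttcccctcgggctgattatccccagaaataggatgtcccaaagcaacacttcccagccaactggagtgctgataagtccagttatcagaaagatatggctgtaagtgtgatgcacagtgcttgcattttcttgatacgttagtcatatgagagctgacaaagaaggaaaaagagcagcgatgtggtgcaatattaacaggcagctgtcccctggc
The Ccn1 promoter held 1 match on the other strand, beginning 105 bases before the start, and these letters were not in the Ankrd1 window. Among all 21770 protein-coding promoters of the same length, 12.1% held at least 1 match on either strand. Yap1, Wwtr1 and Tead1 also held 1 match each, and these letters were not in the windows of Tead4, Lats2, Amotl1 and Piezo1. A match is a description of the sequence and not evidence of binding.

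Ccn2, which encodes the matricellular protein CTGF, had 17296 and 16915 normalized counts in the controls and 3277 and 2137 in the tamoxifen libraries. It was 6.32-fold lower in the mean, and both tamoxifen libraries lay far below both controls. The log2 fold change was -2.69 with a standard error of 0.22 (limma with Benjamini-Hochberg adjustment, adjusted p = 6.2e-05). Ccn2 fell by nearly as much as Pecam1, whose log2 fold change was -2.85. Per kb of exon, Ccn2 had 0.649 and 0.598 times the level of Pecam1 in the controls and 0.643 and 0.748 times in the tamoxifen libraries, and these ratios overlapped between the groups. Of its exon bases 36.5% are shared with the antisense RNA Gm15270, which had 139.7 and 191.5 normalized counts in the controls and 18.4 and 23.0 in the tamoxifen libraries. The libraries were made with a stranded kit, but how strand was used in the counting is not given in the sources used here, so reads of such partners may not be separated.

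Ccn1 encodes CYR61, the other matricellular target of YAP and TEAD. Its level was 11014 and 6834 normalized counts in the controls and 4913 and 2558 in the tamoxifen libraries, so the groups did not overlap but each spread widely. The log2 fold change was -1.29 with a standard error of 0.33 (limma with Benjamini-Hochberg adjustment, adjusted p = 0.0117). The call was not kept without control replicate 1 (log2 fold change -0.95, adjusted p = 0.00829, under the size limit), without tamoxifen replicate 1 (-1.76, adjusted p = 0.0564) or without tamoxifen replicate 2 (-0.82, adjusted p = 0.195). Ccn1 shares 23% of its exon bases with the antisense RNA Gm17501, which reached at most 99.2 normalized counts in any library.

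Ankrd1, which encodes the ankyrin repeat protein CARP of the nucleus and the muscle sarcomere, was the only one of the 10 to be called higher under the authors' scaling. It had 8.22 and 6.26 normalized counts in the controls, from 6 and 5 reads, and 250.4 and 116 in the tamoxifen libraries, from 231 and 162 reads. Both tamoxifen libraries lay well above the controls, where the gene was barely detected. The log2 fold change was 4.39 with a standard error of 0.58 (limma with Benjamini-Hochberg adjustment, adjusted p = 0.00048), and the added 1 in the log understates the change of so low a gene. Even in the tamoxifen libraries Ankrd1 had 83.9 and 39.0 normalized counts per kb of exon, the lowest level in each among the 10 genes. It shares 24.3% of its exon bases with the antisense RNA Gm56671, which is not listed in the table. Reads of this partner may not be separated from those of Ankrd1, and its part in the low counts was not tested.

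The coactivators did not move alike. Wwtr1 (TAZ), on chromosome 3 from 57363067 to 57483331 of GRCm39, had 19728 and 18079 normalized counts in the controls and 7686 and 5512 in the tamoxifen libraries. It was 2.86-fold lower in the mean, with no overlap and a log2 fold change of -1.54 (standard error 0.21, limma adjusted p = 0.00051). Yap1 had 5994 and 5322 in the controls and 4996 and 4134 in the tamoxifen libraries. All of its values lay close together, the tamoxifen libraries just below the controls, and it was not called (log2 fold change -0.31, standard error 0.17, limma adjusted p = 0.143). When the libraries were rescaled to equal totals or by quantiles, the log2 fold change of Yap1 was 0.16 and 0.05. Within a library the pair can be compared as a ratio, which a single factor per library does not alter. Per kb of exon, Wwtr1 stood at 2.61 and 2.69 times the level of Yap1 in the controls and at 1.22 and 1.06 times in the tamoxifen libraries. By this measure TAZ transcripts were the larger part in the controls, at 72.3% and 72.9% of the pair. They were close to equal in the tamoxifen libraries, at 54.9% and 51.4%. The length counts all annotated exons, expressed or not, so such shares depend on it, while the relative change of the ratio between groups does not.

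The DNA-binding partners moved in opposite directions. Tead4 had 2253 and 2203 normalized counts in the controls and 1194 and 745 in the tamoxifen libraries. Both tamoxifen values were lower, with a log2 fold change of -1.24 (standard error 0.23, limma adjusted p = 0.0026). Without tamoxifen replicate 2 it was -0.90 and no longer past the size limit. Tead1 had 5356 and 4766 normalized counts in the controls and 9118 and 9243 in the tamoxifen libraries. Both tamoxifen values were higher and nearly equal, but the log2 fold change of 0.86 (standard error 0.16, limma adjusted p = 0.0023) did not reach the size limit, and it was 1.33 after either rescaling. The ratio of Tead1 to Tead4 per kb of exon, which a single factor per library leaves unchanged, was 1.06 and 0.967 in the controls and 3.41 and 5.55 in the tamoxifen libraries.

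Of the other TEAD genes, Tead3 rose from 64.4 and 145.2 normalized counts in the controls to 713 and 881 in the tamoxifen libraries (log2 fold change 3.02, limma adjusted p = 0.00048). Tead2 had 3591 and 3831 in the controls and 4969 and 4024 in the tamoxifen libraries and was not called (log2 fold change 0.27, limma adjusted p = 0.195). Of all TEAD transcripts per kb of exon, Tead4 made up 25.9% and 25.3% in the controls and 10.4% and 7.34% in the tamoxifen libraries. Tead1 made up 27.5% and 24.4% in the controls and 35.6% and 40.7% in the tamoxifen libraries, while Tead2 overlapped between the groups at 44.1% to 48.8%. The TEAD family as a whole summed to 1433 and 1437 normalized counts per kb in the controls and 1884 and 1672 in the tamoxifen libraries, whereas Yap1 and Wwtr1 together summed to 2306 and 2095 against 1182 and 907.

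**Figure D2:**
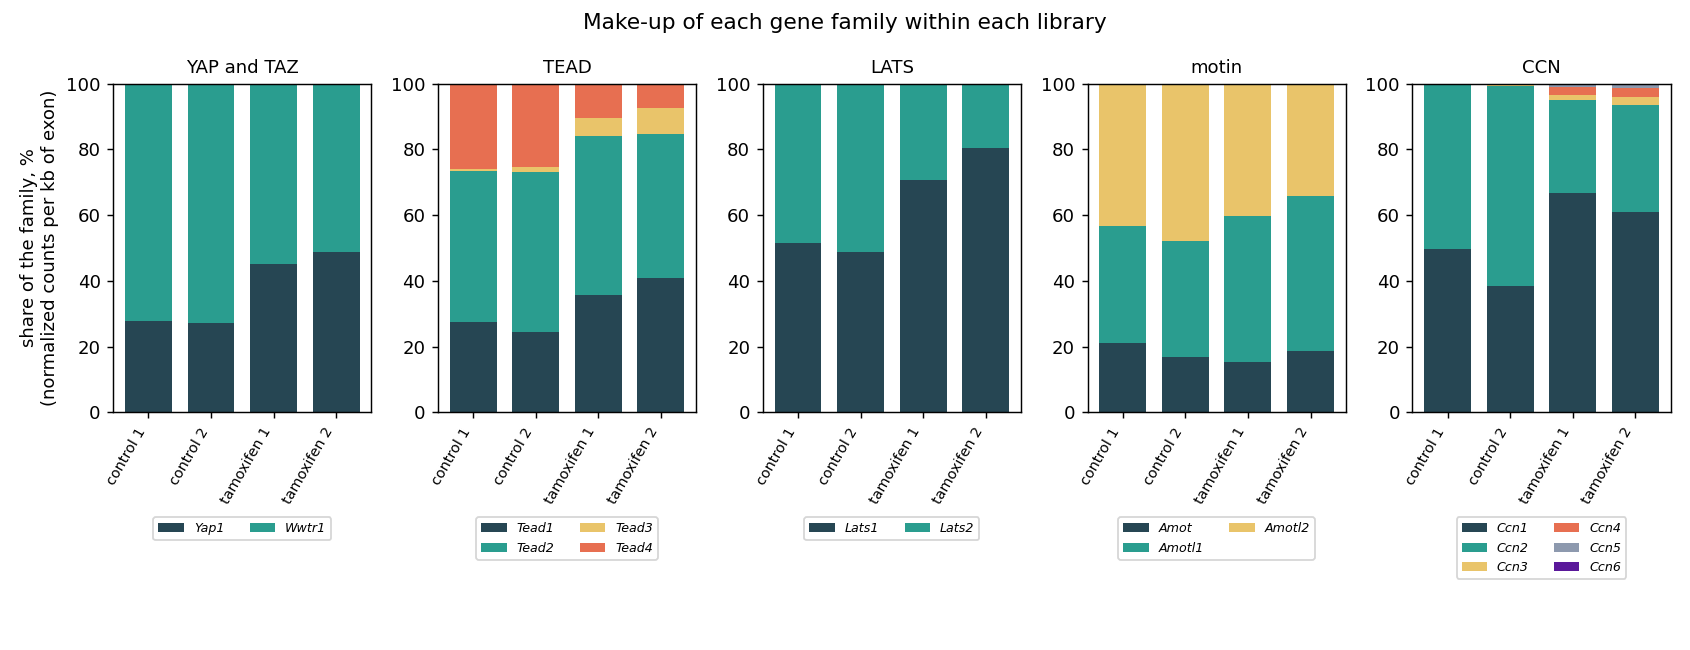
Share of each gene in its family within each library, in percent of the family's normalized counts per kb of exon, as stacked bars for the 2 control and 2 tamoxifen libraries. Shares are ratios within a library and are the same under any single factor per library, though not under quantile normalization; Wwtr1, Tead4, Lats2 and Ccn2 hold smaller shares in both tamoxifen libraries than in both controls.

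Among the inhibitors, Lats2 showed the larger difference. LATS2 is a kinase that phosphorylates YAP and TAZ, and its gene is also a YAP-TEAD target that feeds back on the pathway. Lats2, on chromosome 14 from 57926960 to 57995845 of GRCm39, had 3764 and 3451 normalized counts in the controls and 911 and 637 in the tamoxifen libraries. It was 4.66-fold lower in the mean, without overlap, and its log2 fold change was -2.24 (standard error 0.20, limma adjusted p = 9.4e-05). Its paralogue Lats1 had 4798 and 3928 normalized counts in the controls and 2641 and 3121 in the tamoxifen libraries, a smaller difference that passed the adjusted p alone (log2 fold change -0.60, limma adjusted p = 0.0193). Per kb of exon the ratio of Lats2 to Lats1 was 0.94 and 1.05 in the controls and 0.413 and 0.244 in the tamoxifen libraries, and that of Lats2 to Yap1 was 0.561 and 0.58 in the controls and 0.163 and 0.138 in the tamoxifen libraries. Lats2 shares 28.2% of its exon bases with an overlapping gene model on the same strand, Gm49361, which is not listed in the table.

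Amotl1, which encodes angiomotin-like 1, a junction protein that binds YAP, had 13307 and 12848 normalized counts in the controls and 8267 and 7267 in the tamoxifen libraries. Both tamoxifen values were lower, and the difference passed the adjusted p but not the size limit (log2 fold change -0.75, standard error 0.17, limma adjusted p = 0.0061). After rescaling to equal totals or by quantiles it was -0.28 and -0.19, with adjusted p = 0.106 and 0.225. Of its paralogues, Amotl2 fell from 11252 and 12117 to 5261 and 3717 normalized counts (log2 fold change -1.40) and Amot from 6506 and 5059 to 2384 and 2407 (log2 fold change -1.26). Amotl1 thus made up 35.8% and 35.4% of the 3 motin transcripts per kb of exon in the controls and 44.3% and 47.0% in the tamoxifen libraries.

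Piezo1 encodes a stretch-gated cation channel through which endothelial cells sense flow. It had 14060.3 and 13659.9 normalized counts in the controls and 8470 and 5479 in the tamoxifen libraries, without overlap. Its log2 fold change of -1.02 (standard error 0.23, limma adjusted p = 0.0059) lay just past the size limit. It was -0.71 without tamoxifen replicate 2, -0.55 with equal totals (adjusted p = 0.049) and -0.47 with quantile normalization (adjusted p = 0.086), so that the call was lost in each. Piezo1 shares 39.5% of its exon bases with Ctu2 on the opposite strand, a gene at 627 to 793 normalized counts in the controls and 687 to 788 in the tamoxifen libraries. Piezo2, the other channel of the family, fell from 1027 and 778 to 293.7 and 436 normalized counts (log2 fold change -1.32), and Piezo1 remained between 95.6% and 98.0% of the pair per kb of exon in all 4 libraries.

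**Figure D3:**
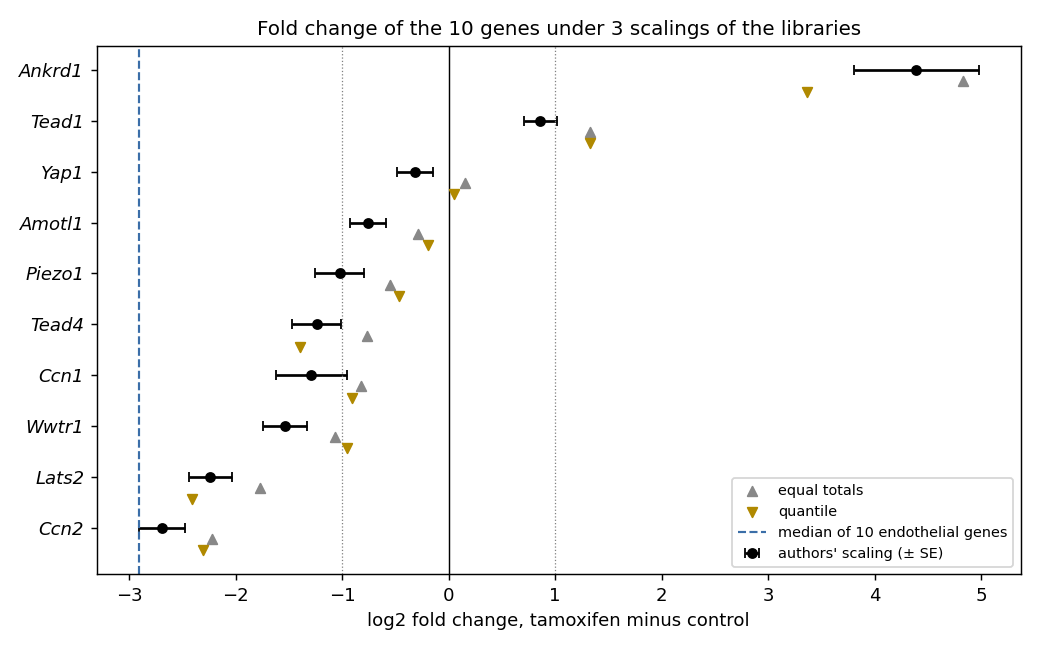
Log2 fold change of each of the 10 genes, tamoxifen minus control, with black circles and bars for the limma estimate and its standard error under the authors' scaling, triangles pointing up for libraries rescaled to equal totals and pointing down for quantile normalization. Dotted lines mark the size limit of 1 and the dashed line the endothelial median of -2.91; Ccn2 at -2.69 lies nearest to that line, and Yap1 lies on the other side of 0 under both other scalings.

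The authors' scaling left sums of normalized counts that were lower in the tamoxifen libraries (38352700 and 35800600) than in the controls (51330900 and 51346700), and so the choice of scaling bears on genes with small differences. Rescaling to equal totals shifted the median log2 fold change of all genes by 0.47 and quantile normalization by -0.25. Ccn2, Lats2 and Ankrd1 were called in the same direction under both. Wwtr1 was called after equal totals (-1.07) and missed the size limit after quantile normalization (-0.96), while Tead4 was at -0.77 and -1.40. With equal totals, Ankrd1 and Tead1 were called higher, beside 35.2% of all genes, and Wwtr1, Lats2 and Ccn2 lower, beside 8.97%. By quantiles, Ankrd1 and Tead1 were called higher, beside 23.1% of all genes, and Tead4, Lats2 and Ccn2 lower, beside 25.8%. For Ccn1 the log2 fold change was -0.82 (adjusted p = 0.0722) with equal totals and -0.91 (adjusted p = 0.0534) with quantile normalization.

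Levels can be ranked between genes per kb of exon, though the length counts all annotated exons, expressed or not, and the order depends on it. In the controls Ccn2 was highest (5427 and 5308 normalized counts per kb), followed by Ccn1 (5420.3 and 3363), and their libraries overlapped. Wwtr1 (1667 and 1528), Piezo1 (1415 and 1374) and Amotl1 (1319 and 1273) came next, each pair of neighbours without overlap. Yap1 (639 and 568) stood apart from Tead1 (395 and 351), whose range included that of Tead4 (371 and 363) and overlapped that of Lats2 (359 and 329), with Ankrd1 (2.76 and 2.1) far below. In the tamoxifen libraries Ccn1 was highest (2418 and 1259), followed by Ccn2 (1028 and 671), Amotl1 (819 and 720.04) and Piezo1 (852 and 551). The ranges of Ccn2 and Piezo1 overlapped, and each included those of Amotl1 and Tead1 (672 and 681). Piezo1 also overlapped Wwtr1. Tead1 was followed by Wwtr1 (649.5 and 466) and Yap1 (533 and 441), which overlapped each other, then by Tead4 (197 and 123) and by Lats2 (86.9 and 60.7) with an overlapping Ankrd1.

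Within each library, Wwtr1, Piezo1, Yap1 and Lats2 were also set against Pecam1. All 4 stood higher relative to it in both tamoxifen libraries than in both controls. Pecam1 itself fell further than any of them (log2 fold change -2.85), so the higher ratios restate the fold changes above. The median log2 fold change of all genes tested was 0.05, so a rise relative to Pecam1 is not particular to these genes. The ratio to Pecam1 per kb of exon was 0.199 and 0.172 for Wwtr1 in the controls and 0.406 and 0.519 in the tamoxifen libraries. For Piezo1 it was 0.169 and 0.155 against 0.533 and 0.615, and for Yap1 0.0764 and 0.0639 against 0.333 and 0.492. For Lats2 it was 0.0429 and 0.0371 in the controls and 0.0544 and 0.0677 in the tamoxifen libraries. The ratio of Ccn2 to Pecam1, given above, overlapped between the groups. The profiles of centred log2 values over the 4 libraries were most alike, among the 10 genes, for Tead4 and Piezo1, with a root mean square difference of 0.11.

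Among 13668 genes whose mean reached 100 normalized counts, the profiles nearest to that of Ccn2 were those of 9130017K11Rik (root mean square difference 0.02 on the log2 scale, over 4 libraries), Rassf9 (0.04) and Ptprm (0.04). Ptprm, which encodes a receptor tyrosine phosphatase, had 34524 and 33039.6 normalized counts in the controls and 6966 and 4304 in the tamoxifen libraries. Nearest to Ankrd1 were Fcer1g (0.21), AI662270 (0.22) and Psd4 (0.23). Fcer1g, which encodes the signalling gamma chain of Fc receptors in blood cells, had 38.4 and 25.03 normalized counts in the controls and 709 and 433 in the tamoxifen libraries. With 4 libraries in 2 groups, likeness of this kind rests mainly on the difference between the groups.

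The rest of the pathway was read from 5 lists that hold 63 other genes, of which 61 were in the table and 60 were tested. Of these, 18 were called higher, beside 28.6% of all genes tested, and 16 lower, beside 16%. The same shares stand beside the calls of each list below. Of 18 Hippo kinases and upstream regulators, 2 were called higher and 4 lower, with a median log2 fold change of -0.42 (0.05 after rescaling to equal totals and -0.06 by quantiles). The balance of its calls turned round with equal totals, to 4 higher and 1 lower, and was 1 higher and 2 lower by quantiles. Over all genes, higher and lower calls were 35.2% and 8.97% with equal totals and 23.1% and 25.8% by quantiles. Fat4, a giant protocadherin upstream of the Hippo kinases, fell from 12760.4 and 11018 normalized counts in the controls to 2750 and 2464 in the tamoxifen libraries (log2 fold change -2.19, limma adjusted p = 4.4e-05), the lowest of the list. Wwc2 (-1.37) and Amot (-1.26) were also called lower, as was Sav1 (-1.02), the scaffold of the MST kinases. Wwc1, which encodes the scaffold KIBRA, rose from 134.2 and 250.3 to 1827 and 2827 normalized counts (log2 fold change 3.62, limma adjusted p = 0.000103), and the kinase gene Taok3 rose by 1.06 on the log2 scale. The MST kinase genes differed in sign, with log2 fold changes of 0.78 for Stk4 and -0.60 for Stk3, both past the adjusted p and not the size limit, and Nf2, which encodes merlin, was at -0.33 (adjusted p = 0.103).

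Among the TEAD cofactors of the Vestigial-like family, Vgll3 rose from 24.7 and 13.8 normalized counts to 227.6 and 184.8 (log2 fold change 3.40, limma adjusted p = 0.00075). Vgll4, which encodes a competitor of YAP for TEAD, had 2735 and 2492 normalized counts in the controls and 1484 and 1536 in the tamoxifen libraries (log2 fold change -0.79, adjusted p = 0.00299, below the size limit). Tead3 and Vgll3 were the 2 called genes of the 4 tested in that list, both higher, and neither was called when either tamoxifen library was left out. Vgll1 and Vgll2 were not listed in the table.

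The list of 24 other YAP-TEAD target genes did not follow Ccn1 and Ccn2 as a body. Of these genes 10 were called higher, beside 28.6% of all genes tested, and 7 lower, beside 16%. Their median log2 fold change was 0.55 (1.01 after equal totals and 0.27 by quantiles). The higher calls came to 6 without tamoxifen replicate 1 and 7 without tamoxifen replicate 2. Igfbp3, which encodes an insulin-like growth factor binding protein, fell from 20458 and 21059 normalized counts to 2669 and 1008 (log2 fold change -3.66, limma adjusted p = 0.00017). Arhgap29 (-2.58) and Foxf2 (-2.51), a transcription factor gene of brain vessels, followed. Birc5 rose from 28.8 and 23.8 to 3268 and 2945 normalized counts (log2 fold change 6.84, limma adjusted p = 4.4e-06). Birc5 encodes survivin, which acts in cell division, and the 6 cell cycle markers were all called higher as well, with a median of 6.58. Fjx1 (4.38) and F3 (4.26), which encodes tissue factor and is also expressed by astrocytes, were next, beside an astrocyte marker median of 2.90. What part dividing cells or astrocytes have in the values of these target genes was not tested.

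Of the other CCN family genes, Ccn4 (2.53) and Ccn5 (4.74) were called higher, at levels of at most 519 and 75.9 normalized counts, while Ccn3 was not called (0.29). In the controls Ccn5 had 0 and 5.01 normalized counts, from 0 and 4 reads, so its log2 fold change depends on the added 1. Of this list none was called without tamoxifen replicate 1 and 1 without tamoxifen replicate 2. Ccn6 did not reach the mean of 10. Per kb of exon, Ccn1 and Ccn2 together remained the bulk of the family in every library. Within it Ccn2 made up 49.8% and 60.7% in the controls and 28.4% and 32.5% in the tamoxifen libraries, and the ratio of Ccn2 to Ccn1 was 1.00 and 1.58 in the controls and 0.425 and 0.533 in the tamoxifen libraries.

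Beside Piezo1, the list of 12 mechanosensitive channels and flow sensors had 5 genes called lower and 2 called higher. Over all genes tested, 16% were called lower and 28.6% higher. The median log2 fold change of the list was -0.45 (0.02 after equal totals and -0.68 by quantiles). When either tamoxifen library was left out 1 was called higher, and with equal totals 3 were called lower. The lower genes with the lowest values were Kcnj2 (-2.49), which encodes an inward rectifier potassium channel, Trpv4 (-2.16), a calcium-permeable channel gene, and Plxnd1 (-2.09), the gene of a plexin that takes part in endothelial flow sensing. Plxnd1 had 37365 and 37782 normalized counts in the controls and 10593 and 7359 in the tamoxifen libraries. The potassium channel genes Kcnk4 (3.17) and Kcnk2 (1.72) were called higher. Kcnk4 was barely detected in the controls, at 4.11 and 6.26 normalized counts from 3 and 5 reads. In the tamoxifen libraries it had 37.9 and 76.2, from 35 and 106 reads.

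**Figure D4:**
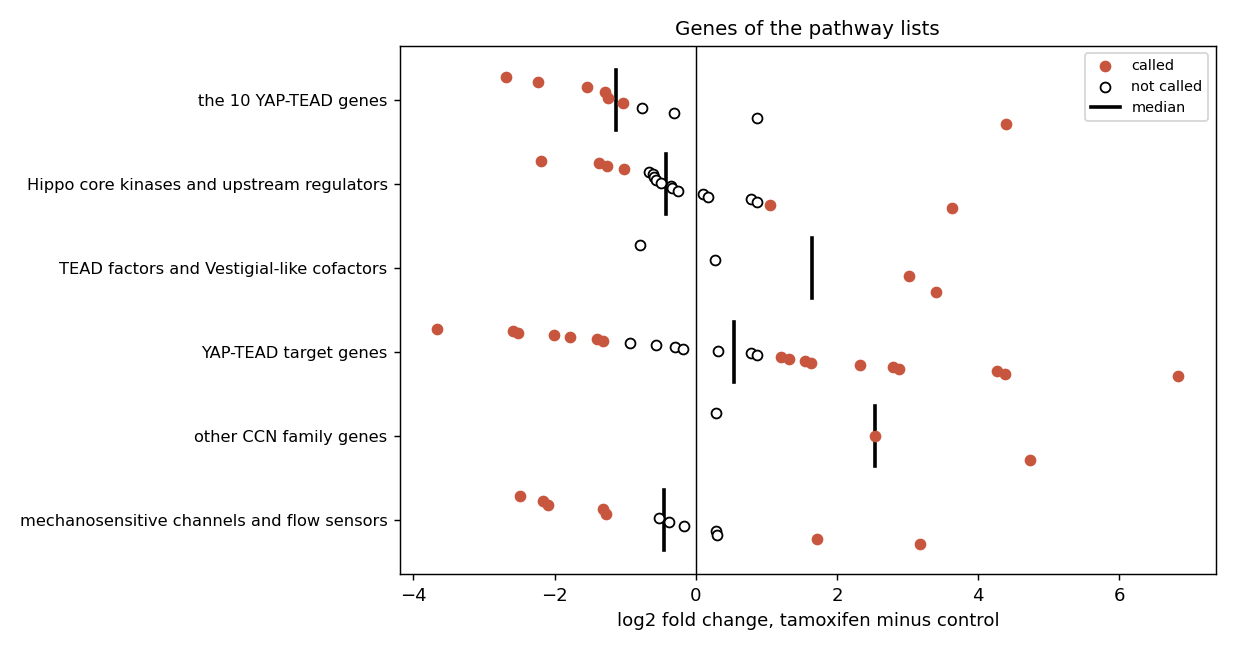
Log2 fold change of every tested gene in the 10 YAP-TEAD genes and the 5 pathway lists, tamoxifen minus control, with filled circles for called genes, open circles for genes not called and a black bar at each list's median. The list of 24 other target genes extends on both sides of 0, from -3.66 for Igfbp3 to 6.84 for Birc5.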

How the data were processed

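RNA was sequenced from brain cells in 2 control and 2 tamoxifen libraries. Per the labels and the study's methods, the authors aligned reads to GRCm39 with STAR 2.7.10a, counted them in the same step, removed genes of low count and normalized the rest in DESeq2 1.36.0. The annotation, the strand setting and the low-count limit are not given in the sources used here. What the authors deposited is a signal for each gene, namely its read count over a factor of the library. All columns of values were used. Dividing each column by its smallest step recovered whole reads, with 100% of values whole within 0.01 read. They came to 37475154 and 41025014 reads in the controls and 35387438 and 49799321 in the tamoxifen libraries. A value of 0 allows up to 3 reads, for counting error only.

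Groups were compared with limma 3.58.1 (R 4.3.3, trended eBayes) on log2(normalized count + 1), with a filter at a mean of 10 and Benjamini-Hochberg adjustment over 20485 genes. Calls needed an adjusted p under 0.05 and a log2 fold change over 1 in size. The alternatives tried were leaving out each library, edgeR 4.0.16 or DESeq2 1.42.0 on the recovered reads, libraries rescaled to equal totals or by quantiles, other pseudocounts (0.5 and 5), the filter at 100 or none, eBayes without a trend, a replicate block, and the adjusted p alone. The limma step was tested on simulated data. The simulation changed far fewer genes than were called here and used known library factors, so it does not give the error rate for these data. Positions, exon lengths (union of exons) and promoters came from GENCODE M39 on GRCm39, in which 24451 of 24873 symbols matched. Figures and summaries were made in Python 3.11.15.

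The members and lists were chosen with earlier results of these data known. Besides the 10 members and Mgp, the genes named are up to 3 called genes with the highest and 3 with the lowest fold change in each list, Lats1, Stk3, Stk4, Nf2, Amot, Amotl2, Tead2, Tead3, Vgll4, Ptprc and Pecam1, and the 3 genes with profiles nearest to the highest and the lowest member. Outside this rule, Piezo2, Sav1, Ccn3, Ccn6, Vgll1, Vgll2 and genes that overlap members were named after their values were seen. A promoter and a further gene list are not reported here.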

Additional observations from a re-analysis of the deposited data

How the results depend on the processing

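Over the 139 alternative values of the 10 genes, 122 kept their direction and stayed called or not called, 13 lost the call, 2 gained it and 2 changed sign. Among those kept is Amotl1, never called, although its adjusted p rose past 0.05 with equal totals (limma adjusted p = 0.106) and by quantiles (0.225). The changes of sign were those of Yap1, which was not called, at 0.16 with equal totals and 0.052 with quantile normalization. The filters, the fit without a trend and the replicate block leave each log2 fold change as it was. There only the adjusted p could move, so part of the agreement was fixed in advance. Ccn2, Lats2 and Ankrd1 kept their calls in every alternative that tested them (Ankrd1 is not tested with a filter at a mean of 100). Ccn1 lost its call in 6 alternatives, of which 3 left out a library, and Piezo1 in 4. Leaving out a library gave 4 to 7 called members, with 4 when tamoxifen replicate 2 was left out, 25 to 35 called pathway genes, and 4979 to 10001 calls over all genes against 9151, the lowest without tamoxifen replicate 2 and 5811 without tamoxifen replicate 1. In such a fit the lone library is assumed to vary like the other group. With the filter at a mean of 100 there were 5934 calls among 13668 genes. The share of higher calls over all genes was 64.1% and became 79.7% with equal totals and 47.2% with quantile normalization. For the pathway lists together, 18 higher and 16 lower calls became 21 and 9 with equal totals and 15 and 13 with quantiles, and 9 and 16 without tamoxifen replicate 1 and 11 and 15 without tamoxifen replicate 2. The cause was not tested.

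Deviations of same-numbered libraries correlated at 0.03 over 20485 genes. With so few libraries per group, this value cannot decide whether same-numbered libraries were paired or processed together. With the replicate block 9525 genes, 7 of the 10 genes and 34 pathway genes were called. Ankrd1 rested on 6 and 5 reads in the controls, and the other 9 genes on at least 841 reads in every library.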
